A study of Mus musculus with 12 samples.

Results

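Macrophages purified from mouse lung tumours after ricolinostat were set against macrophages from vehicle-treated mice, gene by gene. The comparison holds 4 of the series' 12 libraries, chosen by their labels: 2 macrophage libraries labelled ricolinostat and 2 labelled vehicle. The mice are a genetically engineered model labelled KrasTrp53 on a mixed background, and the tissue is lung tumour. The labels give neither the age of the mice, the dose and the length of treatment, nor the promoter that drives the model's alleles. RNA was read on a NanoString panel, in which colour-coded probes are counted without amplification, and 770 mouse immune genes were reported. The other libraries are 2 macrophage libraries from JQ1-treated mice and 6 T cell libraries, 2 each under vehicle, JQ1 and ricolinostat. Nothing in the labels tells whether a group's 2 libraries came from separate animals, so every p-value here measures the spread between libraries and that spread may be technical.

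Ricolinostat blocks histone deacetylases and prefers HDAC6, a mostly cytoplasmic enzyme that removes acetyl groups from tubulin and other proteins. Tumour macrophages take up debris, present peptides on major histocompatibility complex (MHC) molecules, and secrete cytokines and chemokines that draw in or restrain lymphocytes. MHC class II and the costimulatory ligands speak to T cells, Fc and scavenger receptors serve uptake, and Toll-like receptors set off NF-kB and interferon programs.

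The libraries carried macrophage transcripts, as the T cell libraries of the series did too. Cd68, a lysosomal glycoprotein of macrophages, stood at 47588 and 41856 under vehicle and at 38598 and 44974 under ricolinostat, in units of normalised signal on a linear scale. Mrc1, the mannose receptor, stood at 29156 and 32392 under vehicle and at 32543 and 26287 under ricolinostat. The T cell receptor chain Cd3e stood at or below 20, the signal used here as the floor, in all 4 libraries. Of 15 T cell markers measured, 3 exceeded 20 in each vehicle macrophage library, and all 15 did in T cells under vehicle. Macrophage identity genes did not tell the cell types apart. The 27 measured summed to 1471110 and 1413991 in macrophages under vehicle and to 1535367 and 1526087 in T cells under vehicle. An estimate of the counts above background per library ran from 773627 to 1542097 in the 6 macrophage libraries. One count was worth 2.90 and 5.03 signal units under vehicle, 3.51 in ricolinostat replicate 1 and 7.41 in ricolinostat replicate 2, so a signal of 20 is fewer than 7 counts in each of these 4 libraries.

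The ricolinostat libraries did not resemble each other. Replicate 1 lay close to vehicle: over the 564 genes tested its differences from vehicle replicates 1 and 2 had SDs of 0.85 and 0.73 on the log2(signal + 1) scale, and the vehicle libraries differed from each other with an SD of 0.75. For replicate 2 the SDs were 2.72 and 2.76. Of 564 differences from the vehicle mean, 421 exceeded 1 in size in replicate 2 and 55 in replicate 1. The Spearman correlation of levels across those genes was 0.733 to 0.747 between ricolinostat replicate 2 and the other 5 macrophage libraries, and 0.965 to 0.984 among those 5. Genes share each library's depth, so these correlations are descriptions. In the plot of each library against vehicle, the housekeeping genes follow the line of equality in replicate 1 and scatter around it in replicate 2.

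**Figure D1:**
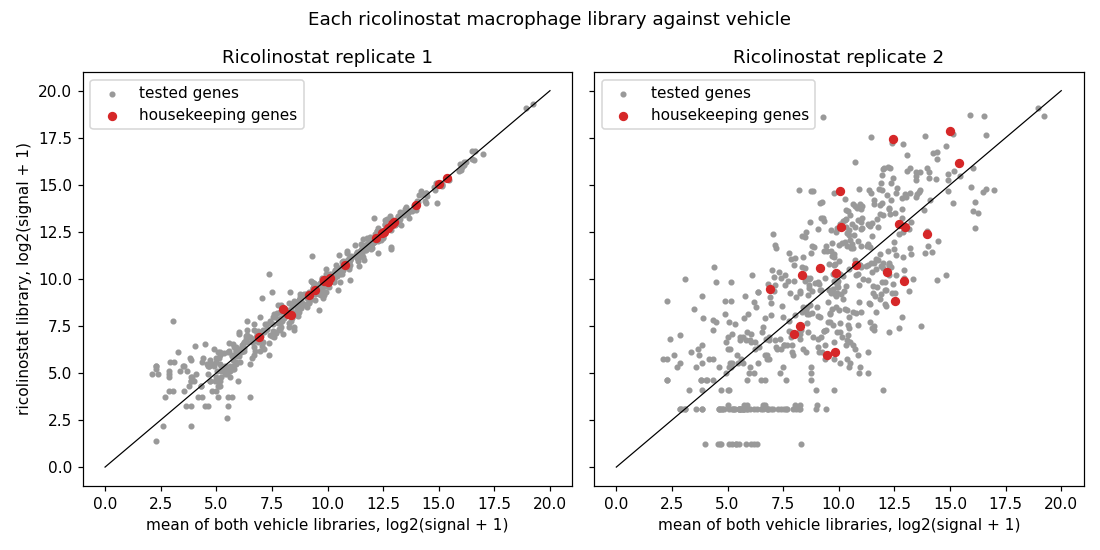
Signal of each ricolinostat macrophage library (vertical axis) against the mean of both vehicle libraries (horizontal axis), both as log2(signal + 1), for 564 tested genes (grey) and 20 housekeeping genes (red), with the line of equality. Differences from vehicle have an SD of 0.70 in replicate 1 and 2.71 in replicate 2.

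The departure of replicate 2 included genes that every cell uses. Tubb5, a tubulin chain, stood at 5174 and 6001 under vehicle, 5495 in replicate 1 and 174039 in replicate 2. Eef1g, a translation elongation factor subunit, stood at 5247 and 6776 under vehicle, 5815 in replicate 1 and 461 in replicate 2. Hdac3, a nuclear histone deacetylase, stood at 875 and 944 under vehicle, 996 in replicate 1 and 68.0 in replicate 2. Replicate 2 alone was far off for each, upward for Tubb5 and downward for the other two. Over the 20 housekeeping genes the differences from vehicle ran from -0.31 to 0.43 in replicate 1 and from -3.72 to 4.96 in replicate 2, with 13 of 20 beyond 1 in size in replicate 2 and none in replicate 1. Sdha, a mitochondrial enzyme subunit, was level across the groups at 1729.9 and 1809 under vehicle and 1682 and 1690.0 under ricolinostat.

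The T cell library labelled ricolinostat replicate 2 was compared in the same way. Across 564 genes the log2 difference between ricolinostat replicates 2 and 1 in macrophages had a Pearson correlation of 0.856 with that in T cells, and across the 20 housekeeping genes it was 0.977. These are descriptions across genes of 4 libraries. The first running number in the labels of both replicate 2 libraries is 33 or 34, against 8 to 21 in the other 10 libraries, and the labels do not say what the number stands for. Drug, library and that number cannot be told apart in replicate 2, and each value below is therefore given for each ricolinostat library apart.

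**Figure D2:**
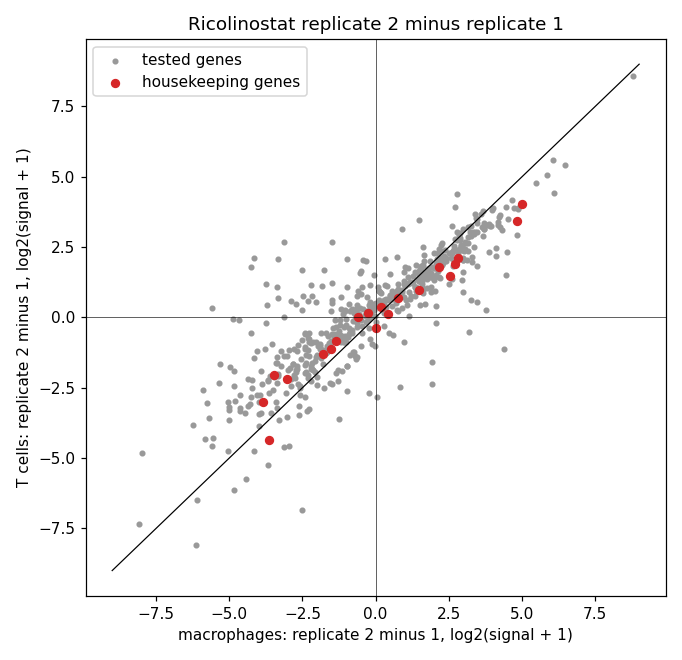
Log2(signal + 1) difference between ricolinostat replicate 2 and replicate 1 in macrophages (horizontal axis) and in T cells (vertical axis), for 564 tested genes (grey) and 20 housekeeping genes (red), with the line of equality. The points lie along the line, with a Pearson correlation of 0.856 over the tested genes and 0.977 over the housekeeping genes.

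With both ricolinostat libraries against both vehicle libraries, no gene passed the test. Limma with Benjamini-Hochberg adjustment over 564 genes called 0 higher and 0 lower at an adjusted p under 0.05, 0% of the genes tested, and 16 genes had an unadjusted p under 0.05. Replicate 1 alone against vehicle also gave 0 calls, 0%, with 24 genes at an unadjusted p under 0.05. Replicate 2 alone gave 183 genes higher, 32.4%, and 184 lower, 32.6%, in a fit that assumes this lone library to vary like the others. An exact permutation test of a single gene over 2 against 2 libraries cannot go below p = 0.333.

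A weaker description is whether both ricolinostat libraries lay beyond both vehicle libraries in 1 direction. That held upward for 71 of 564 genes, 12.6%, and downward for 86, 15.2%. With each library centred on its median the counts were 112 upward and 66 downward, so which direction held more genes turned with the scaling. Replicate 1 alone lay above both vehicle libraries for 156 genes, 27.7%, and below both for 184, 32.6%. Replicate 2 alone lay above both for 249, 44.1%, and below both for 268, 47.5%. The differences of both libraries from the vehicle mean had the same sign for 284 of 564 genes, 50.4% of them. The values of 19 of the 20 genes with the largest smaller difference are given next, and these are a description, since their size chose them. Their limma adjusted p was 0.570 for each, except 0.621 for Fap.

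The genes given from the upper end include Lag3, Tigit, Cd27, Tnfrsf18 and Klrg1, receptors best known on lymphocytes, on a panel of immune genes. All 5 were at or below a signal of 20 under vehicle, as were 14 of the 71 genes upward. Lag3, Tigit, Cd27 and Tnfrsf18 were at or below 20 in both JQ1 libraries too. They met the filter of at least 2 macrophage libraries above 20 only through ricolinostat. Their place above both vehicle libraries was thus fixed by the filter. Lag3, an inhibitory receptor that binds MHC class II, stood at 2.90 and 5.03 under vehicle, at 36.7 in ricolinostat replicate 1 and at 453 in replicate 2. Both vehicle libraries were at or below 20, so ricolinostat was at least 1.80-fold higher in replicate 1 and at least 21.6-fold higher in replicate 2. The fitted difference was 4.75 ± 1.56 (SE) with a limma adjusted p of 0.570. Both JQ1 libraries were below 20 for Lag3 as well.

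Tigit, an inhibitory receptor for Pvr, stood at 2.06 and 5.03 under vehicle and at 29.7 and 53.2 under ricolinostat. Cd27, a costimulatory receptor of the TNF receptor family, stood at 2.90 and 5.03 under vehicle and at 40.2 and 23.6 under ricolinostat. For Lag3, Tigit and Cd27 the groups did not overlap. The signal in replicate 1 rested on few counts above background, 10.4 for Lag3, 8.45 for Tigit and 11.4 for Cd27. In replicate 2 the counts were 61.2 for Lag3, and only 7.18 for Tigit and 3.18 for Cd27. Tnfrsf18, known as GITR, stood at 7.86 and 5.03 under vehicle and at 33.2 and 127 under ricolinostat, and Klrg1, a lectin-like inhibitory receptor, at 7.86 and 5.03 under vehicle and 29.7 and 45.8 under ricolinostat.

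The chains that define T cells were measured as well. Cd3e stood at 12.1 and 7.41 in the ricolinostat libraries, Cd3g at 3.51 and 7.41, Lck at 5.09 and 7.41 and Cd5 at 3.51 and 7.41, all at or below 20. Cd3d was the exception, at 2.90 and 3.06 under vehicle and 19.1 and 127 under ricolinostat. Of the 15 T cell markers measured, 3 exceeded 20 in each vehicle library and in replicate 1, and 5 did in replicate 2. Their summed signal was 261 and 403 under vehicle and 352 and 652 under ricolinostat. The sum of replicate 1 lay within the vehicle range.

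The other genes at the upper end belong to different roles. Erbb2, a receptor tyrosine kinase of epithelial cells, stood at 16.6 and 28.2 under vehicle and at 93.0 and 927 under ricolinostat, a fitted difference of 3.70 ± 1.16 (SE, limma adjusted p 0.570). Cfi, the complement protease factor I, stood at 2.90 and 5.03 under vehicle and at 40.2 and 23.6 under ricolinostat, where replicate 2 rested on 3.18 counts. Camp, the cathelicidin antimicrobial peptide of neutrophils, stood at 2.06 and 8.09 under vehicle and 29.7 and 112 under ricolinostat. The groups did not overlap for any of them. Cfi and Camp were at or below 20 in both JQ1 libraries too, so the filter on low values fixed this for them. Il6st, the signalling chain of the interleukin-6 receptor family, stood at 396 and 43.3 under vehicle and at 515 and 5327 under ricolinostat, where replicate 1 was nearer to vehicle replicate 1 than the vehicle libraries were to each other.

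**Figure D3:**
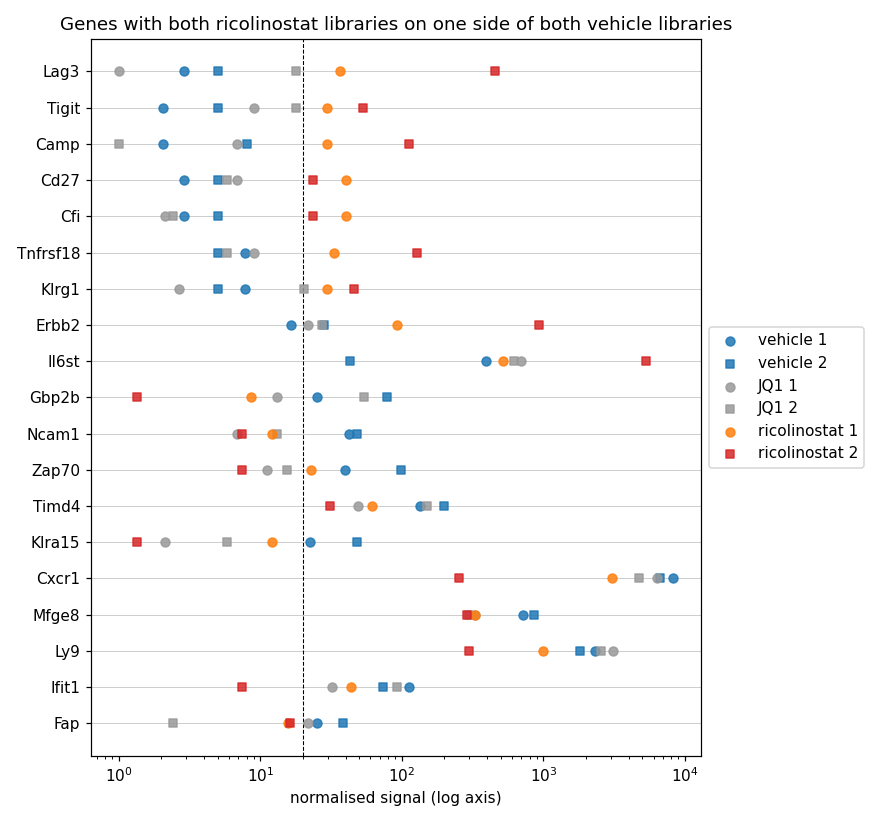
Normalised signal (log axis) in each of the 6 macrophage libraries for 9 genes with both ricolinostat libraries above both vehicle libraries and 10 with both below, ranked by the smaller of the 2 differences from the vehicle mean. The dashed line marks a signal of 20; Lag3 goes from 2.90 and 5.03 under vehicle to 36.7 and 453 under ricolinostat, and Cxcr1 from 8276 and 6649.9 to 3066 and 253.

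At the lower end, 3 of the 10 genes exceeded a signal of 200 in both vehicle libraries and in replicate 1. Cxcr1, a chemokine receptor, stood at 8276 and 6649.9 under vehicle, 3066 in replicate 1 and 253 in replicate 2. Ly9, a receptor of the SLAM family, stood at 2316 and 1825 under vehicle and at 989 and 298 under ricolinostat. Mfge8, a bridging protein for the uptake of dying cells, stood at 712 and 863 under vehicle and at 328 and 290.2 under ricolinostat. For Mfge8 the ricolinostat libraries were close to each other, with differences from vehicle of -1.25 and -1.43 on the log2 scale, a fitted difference of -1.34 ± 0.58 (SE) and a limma adjusted p of 0.570. Under JQ1 Mfge8 stood at 331 and 299.

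The remaining lower genes were dim. Timd4, a phosphatidylserine receptor of resident macrophages, stood at 135 and 199 under vehicle and at 61.3 and 31.0 under ricolinostat. Ncam1, a neural and NK cell adhesion molecule, stood at 42.6 and 48.4 under vehicle and 12.1 and 7.41 under ricolinostat, at least 2.21-fold lower since both ricolinostat libraries were below 20. Gbp2b, a guanylate-binding protein induced by interferon, stood at 25.3 and 78.5 under vehicle and 8.60 and 1.34 under ricolinostat. Neither group overlapped the other for these 3 genes, and the vehicle libraries of Gbp2b were themselves far apart. Zap70, the T cell receptor kinase, stood at 39.8 and 98.7 under vehicle and 22.7 and 7.41 under ricolinostat, Klra15, an NK receptor, at 22.4 and 48.4 under vehicle and 12.1 and 1.34 under ricolinostat, and Fap, a fibroblast protease, at 25.3 and 38.3 under vehicle and 15.6 and 16.1 under ricolinostat.

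A few genes outside those 20 had similar values in both ricolinostat libraries, and were picked out after their values were seen. Cd44, the hyaluronan receptor, stood at 101 and 104 under vehicle and at 61.3 and 60.6 under ricolinostat. Ctsl, a lysosomal protease, stood at 4658 and 5150.4 under vehicle and 2697 and 1683 under ricolinostat. Pvr, the ligand of Tigit, stood at 112 and 93.6 under vehicle and 195 and 238 under ricolinostat. In each of the 3 the ricolinostat libraries lay on one side of both vehicle libraries, lower for Cd44 and Ctsl and higher for Pvr, with a limma adjusted p of 0.570 for each.

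MHC class II genes present peptides from engulfed material, and replicate 1 lay within or above the vehicle range for all 10 measured. It exceeded both vehicle libraries for 3 of 10 and lay below both for none, against 27.7% and 32.6% of all tested genes, with a median difference of 0.22. The vehicle libraries differed from each other by a median of 0.77 in this list, more than replicate 1 did from their mean. H2-Aa, a class II alpha chain, stood at 76536 and 134091 under vehicle, 113866 in replicate 1 and 27991 in replicate 2. H2-Ab1, its beta chain partner, stood at 23369 and 39607 under vehicle, 34539 in replicate 1 and 38729.9 in replicate 2. Replicate 1 was between the vehicle libraries for both chains.

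Ciita, the master regulator of class II transcription, stood at 214 and 275 under vehicle, 392 in replicate 1 and 60.6 in replicate 2, on opposite sides of vehicle. Cd74, the invariant chain, stood at 68943 and 127113 under vehicle, 111705 in replicate 1 and 418224 in replicate 2. H2-Eb1, another class II beta chain, stood at 457 and 848 under vehicle, 912 in replicate 1 and 402722 in replicate 2, the furthest rank upward of any tested gene in replicate 2, with a difference of 9.33 on the log2 scale. In the T cell library of replicate 2 H2-Eb1 stood at 290877, against 868 and 1063 in T cells under vehicle. H2-Dma and H2-DMb1, which load class II with peptide, parted in replicate 2: H2-Dma stood at 4762 and 7832 under vehicle and 7702 and 1179 under ricolinostat, and H2-DMb1 at 248 and 385 under vehicle and 416 and 616 under ricolinostat. In replicate 2, chains and chaperones of one complex thus lay on both sides of vehicle.

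MHC class I molecules show peptides from inside the cell to cytotoxic T cells. Of 16 class I and peptide loading genes tested, 9 lay below both vehicle libraries in replicate 1 and 4 above both, 56.2% and 25% against 32.6% and 27.7% of all tested genes. Differences in replicate 1 ran from -0.92 to 1.99, and none passed the limma test there. The median difference was -0.16 in replicate 1 and 1.07 in replicate 2. H2-K1, a classical class I heavy chain, stood at 33551 and 40352 under vehicle and 32954 and 55283 under ricolinostat. H2-D1, the other, stood at 98491 and 99625 under vehicle and 80527 and 207457 under ricolinostat. Tap1, a subunit of the peptide transporter, stood at 1373 and 1684 under vehicle and 1232 and 3201 under ricolinostat, and Nlrc5, which drives class I transcription, at 382 and 436 under vehicle and 289.8 and 742 under ricolinostat. For these 4 genes replicate 1 was the lowest and replicate 2 the highest of the 4 libraries.

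Of 13 tested ligands that tune T cells, 7 lay below both vehicle libraries in replicate 1 and 3 above, 53.8% and 23.1% against 32.6% and 27.7% of all tested genes. In both replicates 2 lay above and 3 below, 15.4% and 23.1% against 12.6% and 15.2%. Cd274, known as PD-L1, stood at 9856 and 9276 under vehicle, 7987 in replicate 1 and 23954 in replicate 2. Cd86 stood at 846 and 863 under vehicle, 739.6 in replicate 1 and 1216 in replicate 2, and Cd80 at 1104 and 1543 under vehicle, 1091 in replicate 1 and 3460.2 in replicate 2; both are costimulators that bind Cd28. Each of the 3 was lowest in replicate 1 and highest in replicate 2. Pdcd1lg2, known as PD-L2, was higher than vehicle in both, at 144 and 169 under vehicle and 191 and 1305 under ricolinostat, with a limma adjusted p of 0.570. Icosl, the ligand of Icos, stood at 701 and 833 under vehicle and 775 and 683 under ricolinostat, and Cd40, a receptor for help from T cells, stood at 54.2 and 78.5 under vehicle and 47.3 and 135 under ricolinostat.

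Genes of macrophage identity differed little from vehicle in replicate 1. Of 27 tested, 25 lay within 0.5 of the vehicle mean on the log2 scale, 92.6% against 74.3% of all tested genes, with differences from -0.78 to 0.47. In replicate 2 they ran from -3.50 to 3.89. Dim genes lower the share over all tested genes. Among the 368 tested genes above 200 in both vehicle libraries, 40 differed by more than 0.5 in replicate 1, against 145 of 564. The shares within 0.5 given below for other lists carry the same limit. Csf1r, the receptor for the macrophage growth factor Csf1, stood at 4374 and 5382 under vehicle and 5867 and 14163 under ricolinostat, above both vehicle libraries in both replicates, with a limma adjusted p of 0.570. Itgam, the CD11b integrin chain, stood at 159 and 174 under vehicle, 96.5 in replicate 1 and 1060.5 in replicate 2. Itgax, known as CD11c, stood at 5502 and 5709 under vehicle, 4588 in replicate 1 and 42604 in replicate 2. Both integrin chains were lowest in replicate 1 and highest in replicate 2.

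Lyz2, lysozyme, and Chil3, a chitinase-like protein of lung macrophages, were the brightest genes under vehicle and stood close to it in replicate 1. Lyz2 stood at 610840.4 and 613517 under vehicle and 634780.1 and 409122 under ricolinostat, and Chil3 at 553739 and 455709 under vehicle and 547862 and 552089 under ricolinostat. Together they made 32.7% and 27.5% of all signal under vehicle, 31.9% in replicate 1 and 13.2% in replicate 2, where other genes took more. Adgre1, listed under its older symbol Emr1 and known as F4/80, stood at 6902 and 8622 under vehicle and 8574 and 1053 under ricolinostat.

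Receptors for uptake lay low in replicate 2. Of 12 scavenger and C-type lectin receptors tested, 10 were below both vehicle libraries in replicate 2 and 4 were in replicate 1, against 47.5% and 32.6% of all tested genes. The 4 of replicate 1, Msr1, Cd36, Clec5a and Lrp1, were below in both, 33.3% of the list against 15.2%. Msr1, a scavenger receptor, stood at 4429 and 5543 under vehicle and 4152 and 1194 under ricolinostat. Cd36, a receptor for oxidised lipids, stood at 13083 and 7988 under vehicle and 7445 and 1009 under ricolinostat. Clec5a, a lectin receptor that signals through an adaptor, stood at 3368 and 3077 under vehicle and 2061 and 305 under ricolinostat, with a difference of -0.64 in replicate 1, -2.02 ± 0.996 (SE) in the fit and a limma adjusted p of 0.570. Marco, another scavenger receptor, stood at 3745 and 2182 under vehicle and 2722 and 8089 under ricolinostat, and Cd163, the haemoglobin scavenger receptor, was near the floor at 19.5 and 33.2 under vehicle and 22.7 and 1.34 under ricolinostat.

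The Fc receptors, which bind antibody, were close to vehicle in replicate 1, with all 7 tested genes within 0.5 of it, against 74.3% of all tested genes. Below both vehicle libraries were 4 of the 7 in replicate 1, 57.1% against 32.6%, and 3 in both, Fcgr3, Fcgr4 and Fcer1a, 42.9% against 15.2%. Fcgr3 stood at 12929 and 13236 under vehicle, 12317 in replicate 1 and 179 in replicate 2. Fcgr4 stood at 16774 and 15777 under vehicle, 13048 in replicate 1 and 3482 in replicate 2. Fcgr2b, the inhibitory receptor, stood at 16173 and 21403 under vehicle, 25988 in replicate 1 and 2786 in replicate 2. Fcgr2b was the highest of the 4 libraries in replicate 1 and the lowest in replicate 2. Among 15 complement genes tested, only Cfi was above and only C2 below both vehicle libraries in both replicates, 6.67% each against 12.6% and 15.2%, and 13 of the 28 measured did not reach the filter on low values.

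Pattern receptors sense microbial and cell-derived molecules, and 29 of 32, 90.6%, lay within 0.5 of vehicle in replicate 1, against 74.3% of all tested genes. In both replicates 8 lay below both vehicle libraries, 25% against 15.2%, and 3 above, 9.38% against 12.6%. The 8 were Tlr1, Tlr9, Cd180, Ly96, Tirap, Pycard, Ddx58 and Zbp1, and the 3 were Tlr2, Tlr8 and Tmem173. Tlr4, the lipopolysaccharide receptor, stood at 3617 and 4677 under vehicle, 4282 in replicate 1 and 16.1 in replicate 2, the lowest difference of replicate 2 at -7.91. Ly86, which pairs with a relative of Tlr4, stood at 2298 and 2851 under vehicle, 2409 in replicate 1 and 31.0 in replicate 2. Nlrp3, the inflammasome sensor, stood at 2368 and 3304 under vehicle, 2806 in replicate 1 and 188815 in replicate 2. All 3 were within the vehicle range in replicate 1. Tlr2, a receptor for lipoproteins, stood at 4989 and 7596 under vehicle and 9101 and 24591 under ricolinostat, with a limma adjusted p of 0.570. Tlr7, a sensor of single-stranded RNA, was near vehicle at 3579.6 and 3792 under vehicle and 4008 and 2527 under ricolinostat, and Tlr9, a sensor of unmethylated DNA, stood at 45.5 and 68.5 under vehicle and 43.8 and 1.34 under ricolinostat.

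Of 16 inflammatory cytokines tested, 11 lay between the vehicle libraries in replicate 1, 68.8% against 39.7% of all tested genes. Vehicle replicate 2 minus replicate 1 had a median of 0.52 in this list and 0.22 over all tested genes. A wider vehicle gap leaves more room to lie between. Tnf stood at 106 and 149 under vehicle, 125 in replicate 1 and 1394 in replicate 2. Il1b stood at 2837 and 5155 under vehicle, 4848 in replicate 1 and 35456 in replicate 2, and Il6 at 57.1 and 119 under vehicle, 99.98 in replicate 1 and 623 in replicate 2. All 3 cytokines lay within the vehicle range in replicate 1 and above it in replicate 2. Csf1, the macrophage growth factor, was below vehicle in both, at 275 and 340.2 under vehicle and 174 and 7.41 under ricolinostat, and Il27, which restrains T cells, was above in both at 16.6 and 5.03 under vehicle and 33.2 and 68.0 under ricolinostat. The limma adjusted p was 0.570 for both.

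Several cytokines that polarise T cells were at the floor and could not be ordered. Il10 stood at 33.95 and 5.03 under vehicle and 3.51 and 16.1 under ricolinostat, Il12a at 22.4 and 5.03 under vehicle and 15.6 and 7.41 under ricolinostat, and Il23a at 10.8 and 53.4 under vehicle and 40.2 and 7.41 under ricolinostat, each with values below and above 20 in the vehicle group. Il12b stood at 33.95 and 53.4 under vehicle and 36.7 and 60.6 under ricolinostat. Tgfb1, a suppressive cytokine, stood at 11625 and 13417 under vehicle and 11684 and 24991 under ricolinostat. Ido1 and Ccl24 did not reach the filter.

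Genes of alternative activation had no common direction. Arg1, arginase, stood at 141 and 245 under vehicle, 149 in replicate 1 and 7.41 in replicate 2, and Arg2, its mitochondrial relative, at 1286 and 1492 under vehicle, 1309 in replicate 1 and 38.4 in replicate 2. Nos2, the inducible nitric oxide synthase, was at the floor under vehicle, 2.06 and 13.1, and stood at 12.1 and 38.4 under ricolinostat. Thbs1, an adhesive matrix protein, was above vehicle in both, with 36.9 and 33.2 under vehicle and 61.3 and 919.7 under ricolinostat. Il1rn, the interleukin-1 receptor antagonist, stood at 5258 and 8320.4 under vehicle, 9364 in replicate 1 and 164 in replicate 2, above vehicle in one and below it in the other. Over the 20 tested genes the median difference was 0.07 in replicate 1 and 0.04 in replicate 2.

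Among chemokines, Ccl22 and Ccl6 were below both vehicle libraries in both replicates, and Ccl25 and Cxcl14 above, so 2 of 25 tested each way, 8% against 15.2% and 12.6%. Ccl22, which draws regulatory T cells, stood at 747 and 939 under vehicle and 564 and 342 under ricolinostat, a fitted difference of -0.93 ± 0.64 (SE, limma adjusted p 0.570). Ccl17, its relative, stood at 1023 and 1100.0 under vehicle, 891 in replicate 1 and 7741 in replicate 2. Ccl2, which draws monocytes, stood at 347 and 471 under vehicle, 258 in replicate 1 and 1023 in replicate 2. Among chemokines that draw monocytes and T cells, Ccl3 stood at 5093 and 5201 under vehicle and 4588 and 35182 under ricolinostat, Ccl4 at 106 and 174 under vehicle and 156 and 661 under ricolinostat, and Ccl5 at 31.1 and 164 under vehicle and 93.0 and 1.34 under ricolinostat. In replicate 1 Ccl4 and Ccl5 were within the vehicle range.

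Neutrophil chemokines were scattered. Cxcl1 stood at 283 and 355 under vehicle, 638 in replicate 1 and 1.34 in replicate 2. Cxcl2 stood at 889 and 1960.4 under vehicle, 1713 in replicate 1 and 319.8 in replicate 2. Cxcl9 and Cxcl10 draw activated T cells. Cxcl9 stood at 1089 and 1769 under vehicle and 1133 and 5178 under ricolinostat, and Cxcl10 at 83.2 and 109 under vehicle and 54.3 and 172 under ricolinostat. Cxcl10 was the lowest of the 4 libraries in replicate 1 and the highest in replicate 2.

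Cxcl15, a chemokine of lung epithelium, had the fifth highest difference of replicate 1. Cxcl15 stood at 162 and 169 under vehicle, 1204 in replicate 1 and 112 in replicate 2, a difference of 2.86 in replicate 1. Muc1, an epithelial mucin, stood at 112 and 134 under vehicle and 248 and 424 under ricolinostat, and Msln, mesothelin, at 25.3 and 38.3 under vehicle and 54.3 and 75.4 under ricolinostat. Epcam, an epithelial adhesion molecule, stood at 153 and 607 under vehicle and 325 and 135 under ricolinostat. All 5 epithelial markers measured exceeded 20 in every macrophage library. Above both vehicle libraries were 3 of the 5 in replicate 1, 60% against 27.7% of all tested genes, and 2 of the 5 in both replicates, 40% against 12.6%. The other two lay between the vehicle libraries in replicate 1, and none of the 5 passed the limma test with both libraries or with replicate 1 alone. Their summed signal was 3857 and 4524 under vehicle, 5385 in replicate 1 and 2814 in replicate 2. The part of epithelial RNA in the values of Erbb2, Muc1 and Cxcl15 was not tested, and in bulk RNA fewer cells of a type and less RNA per cell cannot be told apart.

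Interferon response genes defend against viruses and form the longest list. Of 37 tested, 19 lay below both vehicle libraries in replicate 1, 51.4%, and 5 above both, 13.5%, against 32.6% and 27.7% of all tested genes. The median difference was -0.17 in replicate 1, against -0.0043 over all tested genes, and -0.39 in replicate 2. Both libraries lay below vehicle for 8 genes, 21.6% against 15.2%, and none passed the limma test of both libraries. Shares above 32.6% in replicate 1 and above 15.2% in both were not particular to this list, as the values of the Fc receptors and the T cell ligands show. Those 8 are Stat2, Isg15, Ifit1, Mx1, Oas2, Ddx58, Herc6 and Jak2.

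Ifit1, which binds viral RNA, stood at 112 and 73.5 under vehicle, 43.8 in replicate 1 and 7.41 in replicate 2. Isg15, a ubiquitin-like modifier, stood at 214 and 149 under vehicle, 125 in replicate 1 and 38.4 in replicate 2. Herc6, the mouse ligase for Isg15, stood at 828 and 929 under vehicle, 511 in replicate 1 and 97.6 in replicate 2. For these 3 the groups did not overlap, and the fitted differences were -2.24 ± 1.03, -1.35 ± 0.91 and -1.97 ± 0.95 (SE), with a limma adjusted p of 0.570 for each. Oas3, a sensor of double-stranded RNA, stood at 65.8 and 28.2 under vehicle, 5.09 in replicate 1 and 45.8 in replicate 2, and Ifit3 at 353 and 184 under vehicle, 135 in replicate 1 and 957 in replicate 2. Oas3 and Ifit3 were lowest in replicate 1 and within or above the vehicle range in replicate 2. Irf7, a transcription factor that amplifies the interferon response, stood at 234 and 48.4 under vehicle and 71.9 and 60.6 under ricolinostat.

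**Figure D4:**
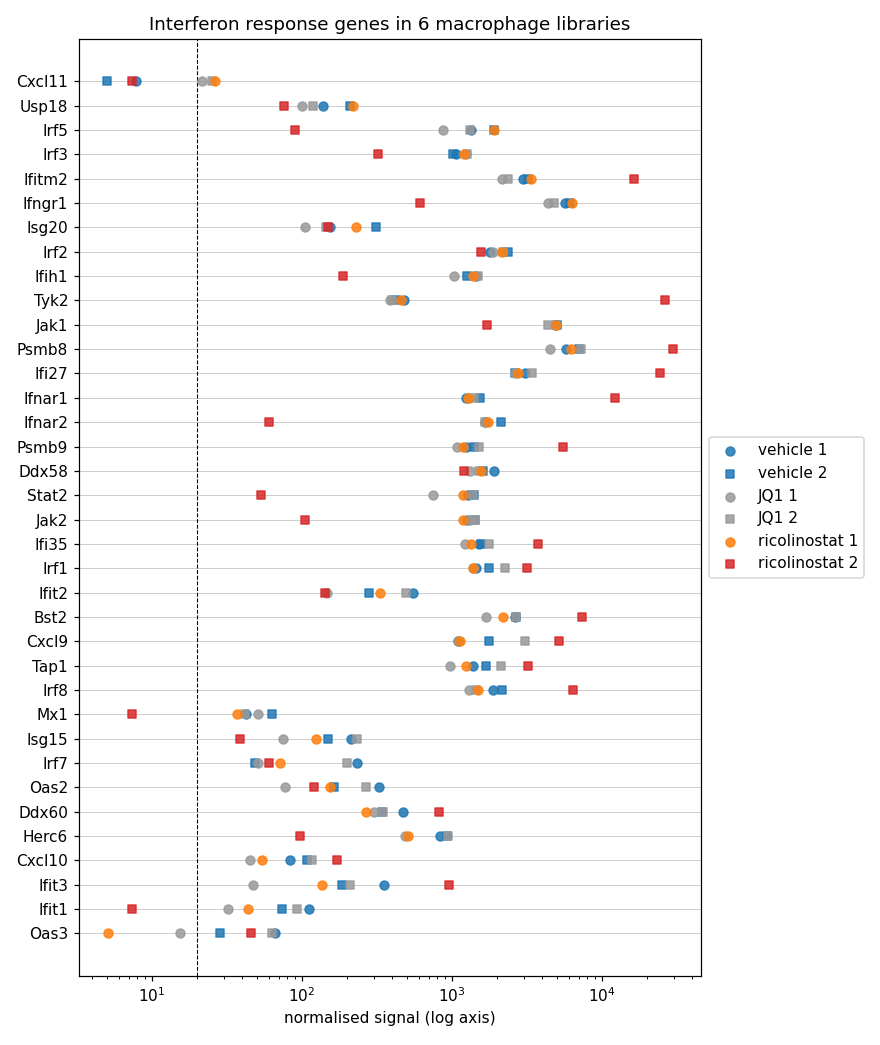
Normalised signal (log axis) of 36 of the 37 tested interferon response genes in each of the 6 macrophage libraries, ordered from the highest to the lowest difference of ricolinostat replicate 1 from the vehicle mean. The dashed line marks a signal of 20; replicate 1 (orange circles) lies left of both vehicle libraries for 18 genes and right of both for 5.

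Many interferon-stimulated genes carry a response element near their start, built around the letters GAAANNGAAA. The stretches below hold these letters upstream of Ifit1 and Isg15, 2 of the genes below vehicle in both libraries, and are shown because this element is what links the list in textbook accounts. They run 5′ to 3′ on the strand of the gene from 130 to 51 bases before the start, from RefSeq promoters of GRCm38.p6, and capitals mark each match of GAAANNGAAA or its reverse complement, with overlapping matches merged. The Ifit1 stretch is chr19:34640759-34640838 on the plus strand, and the Isg15 stretch is chr4:156200869-156200948 on the minus strand.
Ifit1: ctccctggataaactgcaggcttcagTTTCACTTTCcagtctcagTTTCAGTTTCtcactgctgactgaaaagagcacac
Isg15: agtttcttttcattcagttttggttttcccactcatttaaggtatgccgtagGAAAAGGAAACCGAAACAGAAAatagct
The Ifit1 stretch holds 2 matches and the Isg15 stretch 3, which overlap. In windows from 250 bases before to 50 after the start, the letters occurred on either strand in 1131 of 32851 promoters, 3.44%. By gene, a match was found in 39 of the 416 tested panel genes with a promoter in the table, 9.38%, and in 12 of the 31 tested interferon response genes with one, 38.7%. That was 4 of the 6 such genes below vehicle in both libraries and 8 of the other 25. A match is a description of letters and not a binding site.

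NF-kB genes lay within 0.5 of vehicle in replicate 1 for all 18 tested, against 74.3% of all tested genes. Nfkb1, a subunit of the factor, stood at 1675 and 2071 under vehicle, 1815 in replicate 1 and 8919 in replicate 2. Rela, its main partner, stood at 988 and 894 under vehicle, 940.0 in replicate 1 and 5704 in replicate 2. Nfkbia, the inhibitor that NF-kB itself induces, stood at 1539 and 2534 under vehicle, 2209 in replicate 1 and 15955 in replicate 2. Each of the 3 was within the vehicle range in replicate 1 and above it in replicate 2, where 10 of 18 passed the test upward and 3 downward against 32.4% and 32.6% of all tested genes.

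Of 13 tested death and survival genes, Fas, Casp8 and Birc5 were above vehicle in both libraries and Bax and Bid below, 23.1% and 15.4% against 12.6% and 15.2% of all tested genes. Birc5, a survivin that is made in dividing cells, stood at 182 and 265 under vehicle and 395 and 2645 under ricolinostat, and Bid, which relays death receptor signals, at 228 and 169 under vehicle and 139 and 23.6 under ricolinostat. Of 10 cell cycle genes, Birc5, Ccnd3 and Dusp6 were above and Cdkn1a below in both, 30% and 10% against 12.6% and 15.2%. Of 23 adhesion genes, 12 were below both vehicle libraries in replicate 1 and 4 above, 52.2% and 17.4% against 32.6% and 27.7%. In both replicates 5 were below, Icam1, Cd44, Cd9, Alcam and Ncam1, and Itga5 and Icam2 were above, 21.7% and 8.70% against 15.2% and 12.6%. Icam1, a ligand of leukocyte integrins, stood at 1921 and 2076 under vehicle, 1892 in replicate 1 and 38.4 in replicate 2.

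Markers of other cell types were summed by library. The 7 neutrophil markers summed to 9978 and 6239 under vehicle, 3867 in replicate 1 and 9807 in replicate 2, most of it S100a8, a calcium-binding protein of neutrophils, at 9572 and 5779 under vehicle and 3358 and 9585 under ricolinostat. The sum of replicate 1 was below both vehicle libraries, as S100a8 was. The other 3 of the 4 neutrophil markers tested, Camp, Cxcr2 and Csf3r, lay above both in replicate 1. That was 75% of the list against 27.7% of all tested genes. Camp met the filter on low values only through ricolinostat, which fixed its place above vehicle. Cxcr2, a neutrophil chemokine receptor, stood at 246 and 285 under vehicle and 311 and 8.74 under ricolinostat. The part of neutrophil RNA in the lower Cxcr1 of replicate 1 was not tested. The 7 B cell markers, 5 NK cell markers and 5 dendritic cell markers measured summed to 184, 198 and 361 in replicate 1 and 143, 60.6 and 182 in replicate 2. The vehicle sums were 48.8 and 220.5 for B cells, 104 and 193 for NK cells, and 412 and 497 for dendritic cells. The dendritic cell sum was thus below vehicle in both replicates, and it was also below vehicle under JQ1, at 226 and 268. Of its 3 tested markers Ccr7 and Flt3 were below both vehicle libraries in both ricolinostat replicates, 66.7% against 15.2% of all tested genes. Ccr7, the receptor that guides dendritic cells to lymph nodes, stood at 193 and 209 under vehicle and 146 and 90.2 under ricolinostat, and Flt3, their growth factor receptor, at 147 and 194 under vehicle and 128 and 7.41 under ricolinostat. The 7 stromal and endothelial markers summed to 332 and 482 under vehicle, 401 in replicate 1 and 1321 in replicate 2. The part of these cells in other values was not tested.

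**Figure D5:**
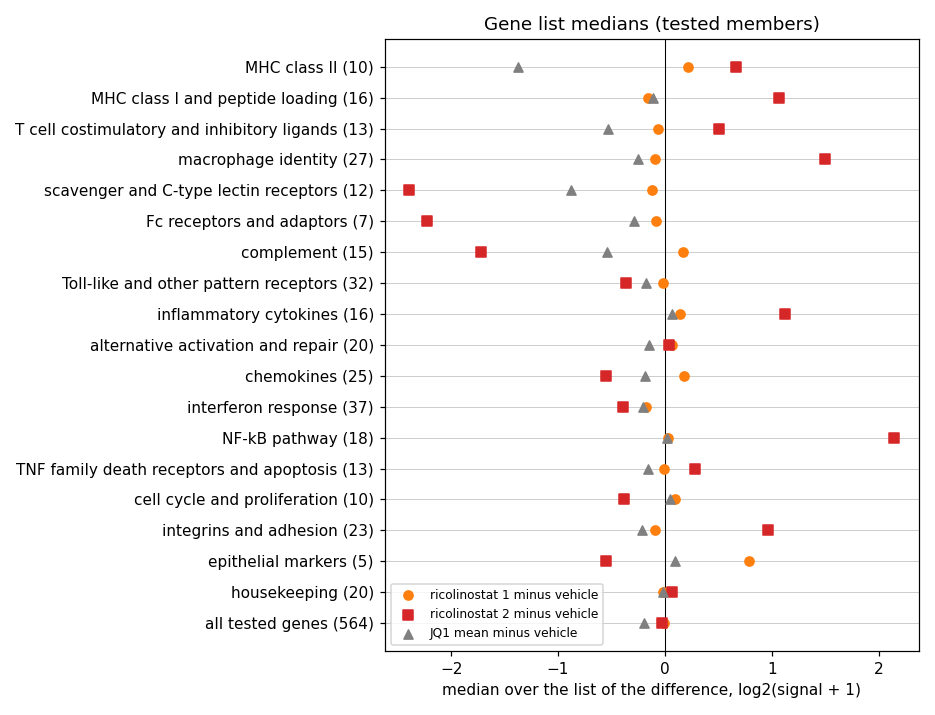
Median over the tested members of each gene list (number in brackets; lists of at least 5) of the difference from the vehicle mean on the log2(signal + 1) scale, for each ricolinostat library and for the JQ1 mean. Replicate 1 medians other than that of the epithelial markers (0.78) lie between -0.17 and 0.22, and replicate 2 medians between -2.40 and 2.15; the housekeeping genes are listed but were not tested.

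JQ1, which blocks the bromodomains that read acetylated histones, served as the second drug. Ricolinostat minus JQ1 gave 0 calls by limma over 564 genes, 0%, and 35 genes at an unadjusted p under 0.05. Among the 5 genes with the smallest p upward were Cfi, Muc1, Pdcd1lg2 and Tnfrsf18, of which Cfi and Tnfrsf18 met the filter on low values only through ricolinostat. Muc1 stood at 36.5 and 75.6 under JQ1 and 248 and 424 under ricolinostat, and Pdcd1lg2 at 34.4 and 39.5 under JQ1 and 191 and 1305 under ricolinostat, with fitted differences of 2.60 ± 0.69 and 3.73 ± 1.002 (SE) and a limma adjusted p of 0.584 for both. The 5 downward were Ly9, Mmp9, Slamf7, Gbp2b and Csf1. Ly9 stood at 3098 and 2546 under JQ1 and 989 and 298 under ricolinostat. The MHC class II list had a median difference from vehicle of -1.38 for the JQ1 mean and of 0.22 and 0.67 in the ricolinostat libraries. Both drugs were set against the same vehicle libraries. The JQ1 libraries were unlike each other: the list summed to 44030 and 159983 under JQ1, and to 176621 and 313532 under vehicle. H2-Ab1 stood at 5487 and 21178 under JQ1, against 34539 and 38729.9 under ricolinostat, with a fitted difference of 1.76 ± 0.84 (SE) and a limma adjusted p of 0.584.

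The ricolinostat difference in macrophages was last set against that in T cells, in 1 fit of all 12 libraries. The test of the difference between cell types gave 0 calls by limma over 659 genes, 0%, and 12 genes at an unadjusted p under 0.05. The T cell libraries also held macrophage transcripts: Cd68 stood at 38097 and 38680.3 in T cells under vehicle and Lyz2 at 639920.4 and 777341. The 5 smallest p upward were Cd27, Tigit, Cd28, Xcl1 and Cxcl5. Cd27 stood at 65.8 and 66.0 in T cells under vehicle and 24.7 and 27.6 under ricolinostat, while in macrophages it stood at 2.90 and 5.03 under vehicle and 40.2 and 23.6 under ricolinostat. Tigit stood at 42.3 and 70.2 under vehicle and 24.7 and 3.60 under ricolinostat in T cells. Under ricolinostat both receptors were lower than vehicle in both T cell libraries and higher in both macrophage libraries. The difference between cell types was 4.02 ± 0.79 for Cd27 and 5.60 ± 1.33 (SE) for Tigit, with limma adjusted p of 0.468 and 0.820. The T cell markers as a list were also lower in T cells under ricolinostat. The 15 measured summed to 5208 and 5449 under vehicle and to 3179 and 3514 under ricolinostat. The part of T cell RNA in the lower Cd27 and Tigit was not tested. Downward, the 5 were Serpinb2, Prkce, Zap70, C6 and Mst1r, of which Serpinb2, a protease inhibitor, stood at 9.07 and 17.3 under vehicle and 50.5 and 88.9 under ricolinostat in T cells and at 22.4 and 5.03 under vehicle and 3.51 and 7.41 under ricolinostat in macrophages.

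Setting replicate 2 of macrophages against replicate 2 of T cells narrowed the spread. The change from vehicle in macrophages minus that in T cells had an SD of 1.40 over 564 genes for replicate 2 and of 0.77 for replicate 1, where the changes in macrophages alone had SDs of 2.71 and 0.70. Over the 20 housekeeping genes that difference between cell types had an SD of 0.71 in replicate 2 and 0.20 in replicate 1. For Tlr4 the replicate 2 value was -3.08, for H2-Eb1 1.09 and for Tubb5 1.13, against differences in macrophages alone of -7.91, 9.33 and 4.96.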

How the data were processed

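RNA of purified T cells and macrophages was read on a NanoString system, per the labels. In the deposited table each gene has 1 normalised, linear signal in each library, a unit read from the values. Background correction, scaling and software are not given in the sources used here. Low values lie on steps with an offset in every library, so whole counts were not recovered and no count test was run; total signal over the step estimates counts above background. Every column mapped to 1 sample. Replicate numbers follow record order. The last label number differs by 6 between the T cell and macrophage library of the same drug and replicate, and the labels do not explain it. Over 659 genes the gap between a group's 2 libraries was compared between cell types. Its Pearson correlation was 0.135 (vehicle), 0.250 (JQ1) and 0.790 (ricolinostat), the last with the replicate 2 libraries numbered 33 and 34.

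Limma 3.58.1 (R 4.3.3) was fitted on log2(signal + 1) with two-sided moderated tests and Benjamini-Hochberg adjustment (threshold 0.05), in 6 macrophage libraries, in 5 for each ricolinostat library apart, and in all 12 between cell types. Every main macrophage fit tested the genes above 20 in at least 2 of the 6 macrophage libraries. This held also where 1 ricolinostat library was left out of the fit. The fit of all 12 libraries tested genes above 20 in at least 2 of 12. The 20 housekeeping genes were not tested, and 186 others failed the filter in macrophages. The procedure was run on simulated data in which all libraries of a gene had the same spread, unlike the ricolinostat libraries here. That run therefore does not show which changes could have been called in these data. Differences are on the log2(signal + 1) scale, on which those of low genes depend on the pseudocount. Where a group stood at or below 20, a fold is given from a signal of 20. Alternatives were the pseudocount, filter, scaling, array weights, block and left-out libraries. The gene lists, named genes and rules were chosen with earlier results of these data known. Named genes are those called, the 10 per direction with the largest smaller difference among genes on one side of both vehicle libraries, the 5 furthest per direction in each ricolinostat library, fixed macrophage genes, the largest of each list, the 5 smallest p per direction against JQ1 and between cell types, and housekeeping genes. Of 770 symbols, 754 matched a GRCm38.p6 gene table, 10 by synonym or case, and 6 did not. Figures used matplotlib under Python. Values of some genes are not reported here.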

Additional observations from a re-analysis of the deposited data

Results flagged for a closer look

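By signal, every ricolinostat library lay on one side of vehicle in macrophages and on the opposite side in T cells for Tigit, Cd27, Cd28, Xcl1 and Prkce. The test of the difference between cell types, in 1 limma fit of 12 libraries, passed for none of them. The macrophage change minus the T cell change was 5.60 for Tigit (limma adjusted p 0.820), 4.02 for Cd27 (0.468), 2.44 for Cd28 (0.999), 4.26 for Xcl1 (0.999) and -3.09 for Prkce (0.999), on the log2 scale. In macrophages Cd28, a costimulatory receptor, stood at 2.90 and 5.03 under vehicle and 15.6 and 7.41 under ricolinostat. Xcl1, a lymphocyte chemokine, stood at 2.06 and 3.06 under vehicle and 19.1 and 7.41 under ricolinostat. Neither exceeded 20 in any of these 4 libraries. In counts above background, Cd28 in replicate 2 was level with both vehicle libraries. Its higher signal there came only from the larger signal per count of that library. Xcl1 in replicate 2 rested on no more counts than Cd28 did. For both genes the side of vehicle in replicate 2 of macrophages therefore cannot be read. How many of all tested genes lay on opposite sides is not given here. Prkce, a protein kinase C, stood at 33.95 and 48.4 under vehicle and 29.7 and 1.34 under ricolinostat in macrophages, and at 34.5 and 55.4 under vehicle and 66.0 and 88.9 under ricolinostat in T cells. With 2 libraries per group no group was large enough to single out an outlying library by its gap to the others.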

How the results depend on the processing

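Ricolinostat minus vehicle in macrophages gave 0 calls in each direction under every scaling, pseudocount, filter, weighting and left-out library tried, except without ricolinostat replicate 1. Leaving out 1 library at a time gave 0 to 183 genes higher and 0 to 184 lower, 183 and 184 being the counts of replicate 2 alone. Ricolinostat minus JQ1 likewise gave 0 to 192 higher and 0 to 160 lower, the upper counts again without ricolinostat replicate 1. The difference between cell types gave 0 to 1 higher and 0 to 4 lower, with 1 higher without T cell ricolinostat replicate 1 and 1 higher and 4 lower without macrophage ricolinostat replicate 1; these genes, named after their values were seen, were Tcf7 in the first case, and Dusp4 higher with Lta, Prkce, Rrad and Tnfsf11 lower in the second. Replicate 1 alone gave 0 calls under every alternative, with a lowest adjusted p between 0.0978 and 0.968. With the replicate block the difference between cell types still gave 0 calls, with 53 genes at an unadjusted p under 0.05 against 12 without the block, and without both ricolinostat replicate 2 libraries 28. For replicate 2 alone, the calls stayed between 143 and 202 higher and 140 and 196 lower.

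Genes with both ricolinostat libraries above both vehicle libraries numbered 71, and 112 with libraries centred on the median, while those below both numbered 86 and 66. In a check added after seeing the data, replicate 1 alone lay above for 156 and below for 184 genes and replicate 2 alone for 249 and 268, against 71 and 86 for both. Centring on the median shifted the median difference of all genes from -0.05 to 0.09. Array weights could not tell the ricolinostat libraries apart, since each of 2 libraries is equally far from their mean. Of the 162 named genes 154 were tested and none was called with both libraries or with replicate 1 alone. Under at least 1 alternative other than leaving out a ricolinostat library, the uncalled difference changed sign for 19 of the 154 with both libraries and for 57 with replicate 1 alone. Depth limits the low genes: at 7.41 signal units per count in replicate 2, values near 20 rest on about 3 counts. Fitted differences of such genes moved with the settings. With both ricolinostat libraries kept, that of Lag3 was 4.75 and at its lowest 2.775. For Tigit it was 3.25 and at its lowest 1.36, and for Cd27 2.71 and at its lowest 1.10.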
